A study of Mus musculus with 10 samples.

Results

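Transcripts of red blood cells were followed in RNA-Seq libraries of iBAT, the interscapular brown fat that mice use to make heat. They were 6 genes taken by symbol from the 54347 gene records of the count table, namely the adult alpha-globin genes Hba-a1 and Hba-a2, the adult beta-globin genes Hbb-bs and Hbb-bt, Alas2 and Slc4a1. All 6 were found, and 5 of them passed the filter on low counts, which left 13732 genes for testing. Slc4a1 did not pass.

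The tissue came from 10 mice on the C57BL/6N background, aged 12 weeks, fed chow, housed singly and exposed to the cold (4 °C) for the last 24 h. In 5 mice (ΔGm15551, replicates 1, 2, 4, 5 and 7) exon 1 of the long noncoding RNA gene Gm15551 had been removed with CRISPR/Cas9 in the whole animal, so that the deletion is not restricted to fat. The line had been backcrossed for only a few generations. The other 5 mice were wild type litter mates (replicates 2, 3, 5, 6 and 7).

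Mature mouse red blood cells have no nucleus, and their youngest form in the circulation, the reticulocyte, still holds RNA made in the bone marrow, most of it for haemoglobin. Haemoglobin joins alpha and beta chains around haem groups. Alas2 encodes the erythroid form of the enzyme that starts haem synthesis, and Slc4a1 encodes band 3, the chloride-bicarbonate exchanger that also anchors the red cell membrane to its skeleton. In a piece of fat these transcripts can come from the blood that remains in its vessels. In such bulk tissue, a smaller number of red cells and less RNA per red cell cannot be told apart.

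The libraries held 9680976 to 15771170 counts each. Gm15551 itself had 0 counts in all 5 ΔGm15551 libraries, and 1, 2, 6, 7 and 0 counts in wild type replicates 2, 3, 5, 6 and 7. A 0 is compatible with a true level of up to 3 counts, a range that holds the counts of wild type replicates 2 and 3 and of the ΔGm15551 mice but not those of wild type replicates 5 and 6, so the label of wild type replicate 7 cannot be checked from this gene. The mouse stood apart in the red blood cell genes, where it was the highest of all 10 mice in each of the 6, and it had the fewest counts of all libraries. It also had the highest summed level of 10 skeletal muscle genes, 2702 counts per 1000000 counts of the library (CPM), against a median of 91.0 CPM over all mice. Wild type replicate 2 was the lowest mouse in each globin gene and in Alas2. The labels number the mice in a lower series (7 mice) and a higher one (3 mice, wild type replicates 5, 6 and 7).

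Both alpha-globin genes lie close together on chromosome 11 (GRCm38, Hba-a1 at chr11:32283511-32284465 and Hba-a2 at chr11:32296489-32297298, plus strand), and the beta-globin genes on chromosome 7 (Hbb-bs at chr7:103826534-103828096 and Hbb-bt at chr7:103812524-103813996, minus strand). Within each pair the copies are nearly the same. Over the 429 coding bases of the alpha chains the GENCODE M21 transcripts differ at 1 position (C381T, counted from 1 at the A of the start codon, Hba-a1 base first), and over the 444 coding bases of the beta chains also at 1 (C417T, Hbb-bs base first). The stretches around these positions are shown because they are the only coding bases that can tell the copies apart, with the differing base in capitals.
Hba-a1: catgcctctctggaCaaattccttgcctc
Hba-a2: catgcctctctggaTaaattccttgcctc
Hbb-bs: gtggctggagtggcCgctgccctggctca
Hbb-bt: gtggctggagtggcTgctgccctggctca

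Reads were 50 bases long on each end, so that many of them fit both copies and were divided by an estimate. Of the 31-base words in the annotated transcripts of Hba-a1, 75.5% also occurred in transcripts of another gene, nearly all in Hba-a2, and for Hba-a2 this share was 92.6%. For Hbb-bs and Hbb-bt it was 54.4% and 59.4%, in each case through the other copy. The single values of the copies are therefore uncertain where their sums are not. Alas2 (chrX:150547375-150570638, plus strand) shared 13.1% of its words, 282 of 2398 of them with the gene Apex2, and Slc4a1 (chr11:102348824-102366203, minus strand) shared 0 of 4884. The sources used here do not say whether strand was used in counting, so reads of Alas2 and Apex2 may not be told apart where these overlap. Apex2 held 14.1 CPM on average and had a slope of -0.24 on the globin level described further on, the opposite sign to Alas2.

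The 5 genes with a RefSeq promoter entry (GRCm38.p6) were also read for short words known from erythroid promoters, since their transcripts moved together over the mice. In the 250 bases before the RefSeq start site, a GATA word (GATA with A or T before it and A or G after it, both strands) was present in 4 of the 5, against 26.5% of 32851 promoter windows of the same length. CACCC was present in 5 of 5 (52% of all windows), CCAAT in 4 of 5 (33.8%) and TATAA in 5 of 5 (22.8%), with both strands read for each. Hbb-bt held no GATA word of these letters and Alas2 no CCAAT. The pair of TATAA matches in Alas2 overlapped each other and began at -208 and -207 from the start site, whereas each globin gene had a match between -30 and -27. The windows of Hba-a1 and Hba-a2 shared an unbroken run of 247 bases, and those of Hbb-bs and Hbb-bt one of at most 14. The windows below are shown to compare the alpha, beta and Alas2 promoters, on the strand of the gene, with matches in capitals.
Hba-a2, chr11:32296301-32296330, plus strand: gcaacTGATAAggattccctgCACCCaggg
Hbb-bs, chr7:103828114-103828143, minus strand: tgcacAGATAAggacaaacattattcagag
Alas2, chrX:150547326-150547355, plus strand: gctttTTATCTttagcagaggcctgagata
Hbb-bs, chr7:103827995-103828024, minus strand: gagccaCACCCtggtaagggCCAATctgct
Hbb-bt, chr7:103813990-103814019, minus strand: agggtaaCACCCtggcATTGGCCAATctgc

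In Alas2 the GATA word lies on the other strand, and in Hbb-bt the first CCAAT match lies on the other strand. Both Hbb windows that carry CACCC and CCAAT start 96 bases before the RefSeq start. GENCODE M21 places the first base of Hbb-bs at -168 from the RefSeq start, so that this Hbb-bs window lies inside the annotated gene. The GATA window of Hbb-bs, from -215 to -186, does not. For Hbb-bt the first base is at -73, so that its window reaches into the annotated gene. A match of letters describes the window and shows no binding.

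Hba-a1 and Hba-a2 encode the alpha chain. In ΔGm15551 replicates 1, 2, 4, 5 and 7, Hba-a2 had 632.7, 404, 371.8, 591.9 and 356.2 CPM. In wild type replicates 2, 3, 5, 6 and 7 it had 230.2, 347.4, 398, 285.9 and 1022 CPM. The ΔGm15551 mice lay inside the wild type range, which was set at both ends by wild type replicates 2 and 7. Hba-a1 had 146, 81.4, 83.9, 116.9 and 70.2 CPM in the ΔGm15551 mice and 41.8, 87.0, 92.2, 65.7 and 246.6 CPM in the wild type mice, in the same order of replicates. It ranked the mice much as Hba-a2 did (Pearson r = 0.979, adjusted p = 0.00015; Spearman rho = 0.879, adjusted p = 0.0054; permutation tests, n = 10).

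Hbb-bs and Hbb-bt encode the beta chain of this strain's haplotype. Hbb-bs had 809.9, 503.3, 439.8, 611.4 and 431.8 CPM in the ΔGm15551 mice and 288, 479.1, 485.8, 334.4 and 1053 CPM in the wild type mice. Hbb-bt had 134.5, 74.0, 74.5, 93.3 and 59.7 CPM in the ΔGm15551 mice and 42.6, 75.6, 74.9, 50.7 and 176.2 CPM in the wild type mice. For both genes wild type replicate 7 was highest, ΔGm15551 replicate 1 second and wild type replicate 2 lowest. Both beta genes followed each other closely (r = 0.992, adjusted p = 7.5e-05; rho = 0.915, adjusted p = 0.0025).

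**Figure D1:**
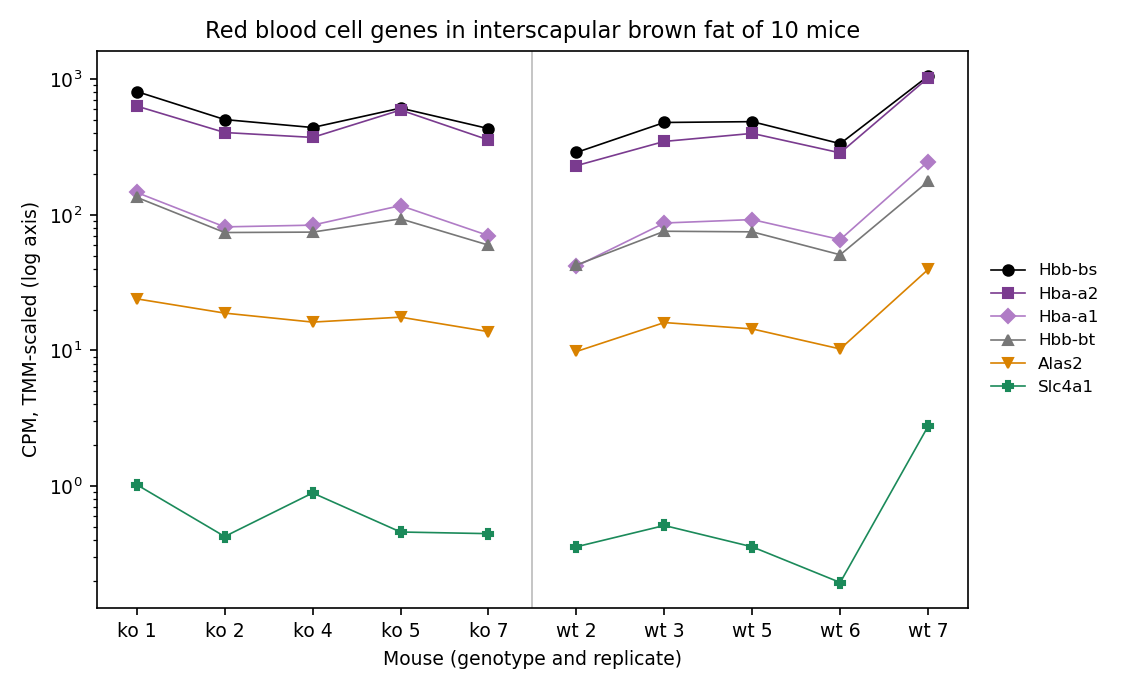
Level of each of the 6 genes in each mouse, in TMM-scaled CPM on a log axis, with ΔGm15551 (ko) on the left and wild type (wt) on the right. Each symbol is 1 library, and lines join the same gene within a genotype only to guide the eye. The curves of the 4 globins and Alas2 run nearly parallel from 9.83 to 1053 CPM, and wt 7 is the highest library for every gene.

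Per length, the globins fell into an upper and a lower pair. In CPM per kilobase of annotated exon, Hbb-bs had 707.9 ± 299.6 (SD, n = 10) and Hba-a2 695.7 ± 347.9, and these levels did not differ beyond their spread, with Hba-a2 above Hbb-bs in 2 of 10 mice. Hba-a1 had 127.0 ± 71.2 and Hbb-bt 121.8 ± 57.8, again with overlap (Hba-a1 above in 5 of 10 mice). Alas2 followed at 7.51 ± 3.58 and Slc4a1 at 0.152 ± 0.154. Each gene of the upper pair was above each of the lower pair in every mouse, and Alas2 and Slc4a1 lay below all globins in every mouse. The levels of the single globin copies rest on the estimated division of shared reads, which was made in every library.

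The summed CPM of the 4 globins, called the globin level from here on, was 1723, 1063, 970.1, 1414 and 918.0 in the ΔGm15551 mice and 602.6, 989.1, 1051, 736.7 and 2498 in the wild type mice. The highest mouse held 4.15 times the level of the lowest. Globins made up 0.0635% to 0.252% of all counts. The means were 1217 ± 342.4 CPM for ΔGm15551 and 1175 ± 761.7 CPM for wild type (SD, n = 5 each), and 844.8 ± 211.1 CPM in the 4 wild type mice without replicate 7.

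While the globin level varied, its composition was nearly fixed. The ratio of beta to alpha transcripts per length was 1.10, 1.08, 1.03, 0.901 and 1.04 in the ΔGm15551 mice and 1.10, 1.17, 1.04, 0.996 and 0.883 in the wild type mice, with a mean of 1.03 ± 0.0884 (SD, n = 10). Hbb-bt held 12.2% to 14.5% of the beta-globin counts (13.4% ± 0.749), and Hba-a2 held 80.0% to 84.6% of the alpha-globin counts (82.1% ± 1.52). Both shares rest on the estimated division of reads between the copies. Alpha and beta sums correlated over the mice (r = 0.984, adjusted p = 7.5e-05; rho = 0.976, adjusted p = 0.0006), also without wild type replicate 7 (r = 0.975). All ratios within the globins are free of the scaling of the libraries.

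**Figure D2:**
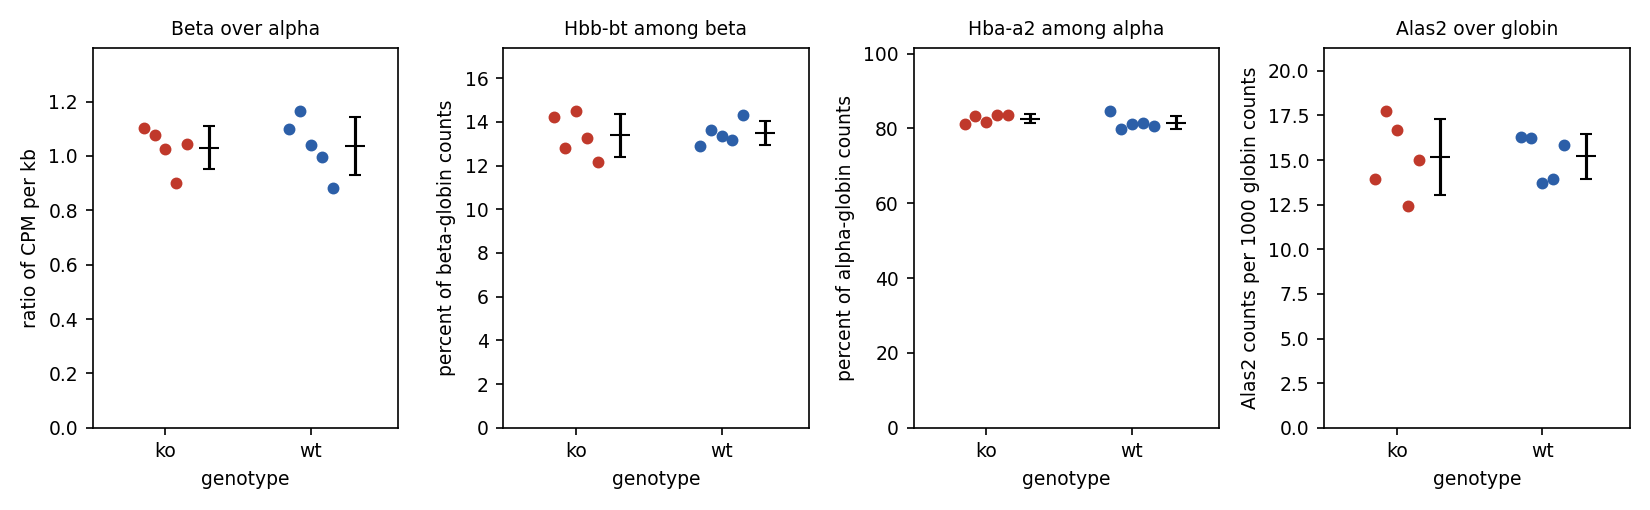
Ratios within the red blood cell transcripts in each mouse, on axes that start at 0. Points are single mice of ΔGm15551 (ko) and wild type (wt), and the bars beside them give the mean ± SD of 5 mice. The groups overlap in all 4 ratios, and the beta to alpha ratio stays between 0.883 and 1.17 over a 4.15-fold range of the globin level.

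Alas2 is regulated with haemoglobin during red cell maturation. It had 24.0, 18.9, 16.2, 17.6 and 13.8 CPM in the ΔGm15551 mice and 9.83, 16.1, 14.4, 10.3 and 39.5 CPM in the wild type mice. Wild type replicates 2 and 6, the lowest mice for globin, were also the lowest for Alas2, and wild type replicate 7 was the highest. Alas2 reached 12.5 to 17.7 counts per 1000 globin counts (15.2 ± 1.65, SD, n = 10). It correlated with the globin level (r = 0.963, adjusted p = 0.00015; rho = 0.939, adjusted p = 0.00135), and r was 0.893 without wild type replicates 2 and 7, the mice farthest from the median (exact p = 0.0057), and 0.938 within the 7 mice of the lower number series (exact p = 0.00694).

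Slc4a1 was near the limit of detection. Its counts were 14, 6, 12, 6 and 6 in the ΔGm15551 mice and 4, 6, 5, 3 and 27 in the wild type mice. The 27 counts of wild type replicate 7 corresponded to 2.77 CPM with an exact 95% Poisson interval of 1.82 to 4.02 CPM, and the 3 counts of wild type replicate 6 to 0.195 CPM with an interval of 0.0402 to 0.569 CPM. These intervals cover counting error only. Only the interval of wild type replicate 7 lay above those of all other mice. Slc4a1 correlated with the globin level (r = 0.821, adjusted p = 0.011; rho = 0.649, adjusted p = 0.122), and this rested on that mouse, since r was 0.609 without it (exact p = 0.0801) and 0.566 within the lower number series (exact p = 0.196). Slc4a1 and Alas2 correlated with r = 0.895 (adjusted p = 0.00315; rho = 0.770, adjusted p = 0.0368), with r = 0.740 without wild type replicate 7 (exact p = 0.0225) and with r = 0.619 within the lower number series (exact p = 0.146). The correlations belong to a family of 15 relations, and the points of each share the scaling of their library.

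For the comparison of ΔGm15551 with wild type, the red blood cell genes gave log2 fold changes (ΔGm15551 over wild type, with SE) of -0.10 ± 0.420 for Hba-a1, 0.05 ± 0.368 for Hba-a2, 0.08 ± 0.316 for Hbb-bs, 0.06 ± 0.362 for Hbb-bt and 0.02 ± 0.347 for Alas2. None of these 5 genes passed the threshold (edgeR quasi-likelihood test, adjusted p = 0.99974 for each). Of all 13732 genes, 0 were called (0%), while 219 (1.59%) had an unadjusted p under 0.05, those higher in ΔGm15551 being 0.961% of the tested genes, and DESeq2 and limma-voom also called 0. The level of Slc4a1 was 0.649 ± 0.286 CPM (SD) in the deletion mice and 0.838 ± 1.08 CPM in the controls, a difference with p = 0.976 in a two-sided exact permutation test. The genotypes overlapped in all 6 genes, whereas 44 of the tested genes (0.32%) did not overlap between the groups.

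The difference between genotypes moved with single mice. Without wild type replicate 7 the log2 fold changes were 0.47 for Hba-a1, 0.58 for Hba-a2, 0.49 for Hbb-bs and 0.52 for Hbb-bt and Alas2, with an adjusted p of 0.975 for each. The difference in the globin level (ΔGm15551 minus wild type, log2) was 0.20 over all 10 mice (two-sided exact permutation test, p = 0.675). It was 0.52 without wild type replicate 7 (exact p = 0.127) and 0.61 within the lower number series (exact p = 0.190), where only 2 wild type mice remain. It was 0.007 without wild type replicate 2 (exact p = 0.992), 0.064 without ΔGm15551 replicate 1 (exact p = 0.960) and 0.079 without wild type replicate 6 (exact p = 0.905). The Hbb-bt share of beta-globin counts was 13.4% ± 0.977 in ΔGm15551 and 13.5% ± 0.550 in wild type (exact permutation test, p = 0.865), the Hba-a2 share of alpha-globin counts 82.6% ± 1.11 and 81.5% ± 1.81 (exact permutation test, p = 0.310), and each had an adjusted p of 0.952 over 5 measures. Without wild type replicate 2 the Hba-a2 share was higher in ΔGm15551 by 1.86 percentage points, with an unadjusted p of 0.0476 in the exact permutation test.

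The red blood cell genes were among the more variable genes between mice of the same genotype. The SD of log2 CPM within the groups was 0.73 for Hba-a1, 0.65 for Hba-a2, 0.58 for Hbb-bs, 0.64 for Hbb-bt, 0.60 for Alas2 and 0.91 for Slc4a1, against a median of 0.27 over the 13732 tested genes. The 5 tested genes lay between percentiles 91.5 and 96.3 of all tested genes. Among the 500 genes nearest in mean level they lay at percentiles of 97.4 or above, and Slc4a1 at 84.6. The same SD of the globin level was 0.62, and 0.38 without wild type replicate 7.

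The globin level was then used as a covariate beside genotype, to ask which other transcripts varied with it from mouse to mouse. Of 13728 genes tested (the 4 globins left out), 1 was called (0.00728%), and it was Alas2. Its slope was 0.95 ± 0.101 (SE), that is, Alas2 rose by 0.95 log2 units for each log2 unit of the globin level (edgeR quasi-likelihood test, adjusted p = 0.0032316). Without adjustment, 3034 genes including Alas2 (22.1%) had a p under 0.05. Without wild type replicate 7 the slope of Alas2 was 0.74 (adjusted p = 0.954) and 0 genes were called, without wild type replicate 2 it was 0.98 (adjusted p = 0.00421) and 2793 genes were called, and without ΔGm15551 replicates 4 or 5 there were 45 and 2 calls. Slc4a1 did not pass the filter for this fit. With no filter on low counts its slope was 1.55 ± 0.362 (adjusted p = 0.0473), and within the lower number series, where it passed, 0.67 ± 0.722 (adjusted p = 0.980).

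**Figure D3:**
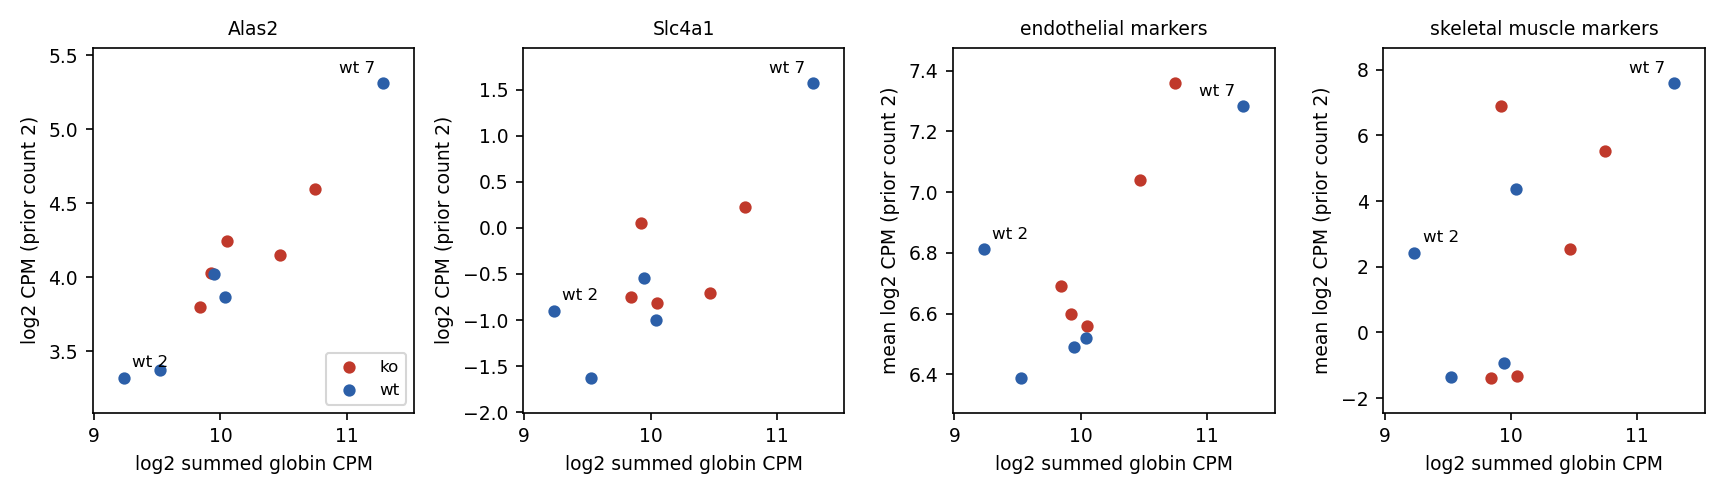
Log2 CPM of Alas2 and of Slc4a1, and the mean log2 CPM of 8 endothelial and 10 skeletal muscle genes, against the log2 globin level in 10 mice (ko ΔGm15551, wt wild type). Each point is 1 mouse, and wt 2 and wt 7 are named. Alas2 rises along the whole range (r = 0.963), Slc4a1 mainly through wt 7, and the endothelial genes are highest in the 2 mice with the most globin. The muscle genes are highest in wt 7 but second highest in ko 4, whose globin level lies on the left.

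Of 21 other erythroid genes in the table, 15 were tested and 0 were called in edgeR (8 had an unadjusted p under 0.05, beside 22.1% of all genes), with a median slope of 0.14 beside a median of -0.004 over all tested genes. DESeq2 and limma-voom each called 2 of the 15 as rising with the globin level, beside 1.69% and 0.051% of all genes. In 5 further settings, which called 0.0219% to 0.309% of all genes as rising, 2 of the list were called, and without wild type replicate 2 edgeR called 4, beside 9.23% of all genes. The smallest p among the genes reported belonged to Ube2l6, which encodes a ubiquitin-conjugating enzyme of the ISG15 pathway that is abundant late in red cell maturation (slope 0.77 ± 0.114, adjusted p = 0.053042 in edgeR, 0.000126 in DESeq2, 0.0392 in limma-voom and 0.954 in edgeR without wild type replicate 7). The genes with the highest level were Prdx2, a peroxide-removing enzyme (slope 0.09 ± 0.0809, adjusted p = 0.539), and Bnip3l, a mitophagy receptor (slope 0.02 ± 0.108, adjusted p = 0.940). Among the transcription factors of red cell precursors on this list, Gata1 reached at most 0.149 CPM, Klf1 0.284 CPM and Nfe2 0.297 CPM, and Gfi1b had 0 counts in all mice. Tal1, which endothelium also uses, had 3.71 to 7.79 CPM and a slope of 0.39 ± 0.165 (adjusted p = 0.198), and Zfpm1, a cofactor of GATA factors, had 7.78 to 13.1 CPM and a slope of 0.27 ± 0.115 (adjusted p = 0.197). In the sum of this list, the correlation with the globin level (r = 0.734, adjusted p = 0.0255; rho = 0.539, adjusted p = 0.189) did not hold without wild type replicates 2 and 7 (r = 0.411, exact p = 0.314), and r was 0.575 within the lower number series (exact p = 0.173).

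Embryonic and minor globin genes gave almost no signal. Of 7 in the table, Hba-x, Hbb-bh0, Hbb-bh1, Hbb-bh2 and Hbb-y had 0 counts in all mice, and Hbq1a and Hbq1b reached at most 0.0742 and 0.143 CPM in single mice. None was tested.

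Of the 15 genes of the erythrocyte membrane, 6 were tested and 0 were called in edgeR, DESeq2 or limma-voom (3 with an unadjusted p under 0.05 in edgeR, beside 22.1% of all genes). Their median slope was 0.07, and it turned to -0.19 without wild type replicate 7 and to -0.24 within the lower number series. Most of their counts belonged to genes that other cells use as well. Epb41, protein 4.1 of the membrane skeleton, had 119.4 CPM and a slope of -0.25 ± 0.0971 (adjusted p = 0.177), and Aqp1, a water channel of red cells and endothelium, had 116.5 CPM and a slope of 0.29 ± 0.164 (adjusted p = 0.298). Ank1, the ankyrin that binds band 3, had 0.325 to 7.99 CPM, highest in wild type replicate 7, and a slope of 1.49 ± 0.486 (adjusted p = 0.146, and 0.0264 without ΔGm15551 replicate 4). In that replicate, second highest for Ank1 and for the skeletal muscle genes, Ank1 had 3.563 CPM. In ΔGm15551 replicate 1, second in the globin level, Ank1 had 1.025 CPM. The part of muscle in these values was not tested. Without wild type replicate 2, 1 gene of this list was called as falling, beside 10.9% of all genes. The summed list showed a correlation with the globin level of r = 0.026 (adjusted p = 0.945; rho = 0.055, adjusted p = 0.891).

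All 11 genes of haem synthesis other than Alas2 were tested, and 0 were called in edgeR or limma-voom (4 with an unadjusted p under 0.05 in edgeR, beside 22.1% of all genes). Their median slope of -0.13 was -0.00017 without wild type replicate 7 and -0.046 within the lower number series. DESeq2 called 1 as falling, Alas1, beside 2.64% of all genes, and without wild type replicate 2 edgeR called 5 as falling, beside 10.9% of all genes. Alas1, which starts haem synthesis outside red cells, had 244.4 CPM and a slope of -0.46 ± 0.120 (adjusted p = 0.130), and Fech, which inserts iron into the ring, had 91.6 CPM and a slope of -0.35 ± 0.133 (adjusted p = 0.170). Of 12 genes for the clearance of haemoglobin, haem and iron, 0 were called in edgeR or limma-voom (3 with an unadjusted p under 0.05 in edgeR, beside 22.1% of all genes, median slope -0.005, and 0.03 without wild type replicate 7). DESeq2 called 1, Slc40a1, as falling, as did edgeR with no filter on low counts (0.0484% of all genes), and without wild type replicate 2 edgeR called 1 as rising and 1 as falling, beside 9.23% and 10.9% of all genes. The ferritin chains Ftl1 (1543 CPM) and Fth1 (1281 CPM) had slopes of 0.17 ± 0.113 and 0.14 ± 0.106 (adjusted p = 0.378 and 0.418). The iron exporter Slc40a1 had a slope of -0.66 ± 0.151 (adjusted p = 0.127) and the biliverdin reductase Blvrb one of 0.28 ± 0.117 (adjusted p = 0.196).

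Markers of neutrophils, of B and T cells and of platelets were sparse, and those of macrophages were higher. The 6 neutrophil genes summed to 1 to 10 counts per mouse, Camp was at 0 in all mice, and the summed level was 0.0709 to 0.744 CPM in the deletion mice and overlapped that of the controls (0.357 to 0.714 CPM). The 6 B and T cell genes summed to 0.983 to 3.69 CPM, with wild type replicate 2 lowest and wild type replicate 7 highest, and none of either list was tested. The 5 platelet genes summed to 6.66 to 12.3 CPM, with 3 tested and 0 called, nor any at an unadjusted p under 0.05, in edgeR, and 0 called in DESeq2 or limma-voom (median slope 0.51), and their correlation with the globin level was r = 0.433 (adjusted p = 0.288; rho = 0.358, adjusted p = 0.470). It was 0.264 without ΔGm15551 replicate 1 (adjusted p = 0.645 in permutation tests), 0.630 without wild type replicate 2 (adjusted p = 0.0868) and 0.711 without wild type replicates 2 and 7 (exact p = 0.0505). Itga2b, the largest part of the platelet sum (5.70 CPM), had a slope of -0.002 ± 0.175 (adjusted p = 0.994 in edgeR). Pf4 (2.21 CPM) and Ppbp (0.771 CPM) had slopes of 0.51 ± 0.250 and 0.61 ± 0.305 (adjusted p = 0.243 and 0.252 in edgeR). For the neutrophil sum the correlation with the globin level was r = 0.241 (adjusted p = 0.578; rho = 0.176, adjusted p = 0.728), and for the 5 macrophage genes, 17.3 to 37.7 CPM in sum, r = 0.151 (adjusted p = 0.728; rho = 0.127, adjusted p = 0.784). Of the 5 macrophage genes 0 were called in edgeR, DESeq2 or limma-voom (1 with an unadjusted p under 0.05 in edgeR, beside 22.1% of all genes), and 1 was called as rising in edgeR without wild type replicate 2, beside 9.23% of all genes.

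Endothelial and skeletal muscle genes were also uneven between the mice. The 8 endothelial genes, markers of the vessel wall, summed to 1025 to 1768 CPM in the deletion mice and to 958.4 to 1706 CPM in the controls, with ΔGm15551 replicate 1 and wild type replicate 7, the mice with the most globin, at the top. All 8 had a positive slope and 0 were called in edgeR or limma-voom (5 with an unadjusted p under 0.05 in edgeR, beside 22.1% of all genes, median slope 0.31, range 0.22 to 0.82, smallest adjusted p = 0.0988). DESeq2 called 3 of the 8 as rising (Cldn5, Egfl7 and Emcn), beside 1.69% of all genes, and edgeR with no filter on low counts called Egfl7 alone, beside 0.178%. Wild type replicate 2 departed from this order, with the least globin and 1389 CPM of endothelial genes. The correlation of their mean with the globin level was r = 0.762 (adjusted p = 0.0217; rho = 0.539, adjusted p = 0.189), 0.923 without wild type replicates 2 and 7 (exact p = 0.00313), 0.651 without wild type replicate 7 alone (exact p = 0.0625) and 0.624 within the lower number series (exact p = 0.142). Without wild type replicate 2 all 8 endothelial genes were among the 2793 genes called, with 9.23% of all genes called as rising.

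The 10 skeletal muscle genes summed to 29.9 to 2702 CPM, with 2702 CPM in wild type replicate 7, 1605 CPM in ΔGm15551 replicate 4 and 770.8 CPM in ΔGm15551 replicate 1. All 10 had a positive slope and 0 were called in edgeR, DESeq2 or limma-voom (1 with an unadjusted p under 0.05 in edgeR, beside 22.1% of all genes). Their median slope was 2.71, and 5.59 with limma-voom. It was 0.89 without wild type replicate 7 and -0.53 within the lower number series, and 1 gene was called without ΔGm15551 replicate 4, beside 0.309% of all genes called as rising. The correlation of their mean was r = 0.584 (adjusted p = 0.113; rho = 0.588, adjusted p = 0.171). The 10 brown adipocyte genes, with 25630 to 30260 CPM in sum, had a median slope of -0.19 with 0 called in edgeR or limma-voom (6 with an unadjusted p under 0.05 in edgeR, beside 22.1% of all genes). This median turned to 0.02 without wild type replicate 7 and to 0.03 within the lower number series. DESeq2 called 4 as falling (Dio2, Plin1, Ppargc1a and Ucp1), beside 2.64% of all genes, and without wild type replicate 2 edgeR called 4 as falling and 1 as rising, beside 10.9% and 9.23% of all genes. Their mean had a correlation with the globin level of r = -0.669 (adjusted p = 0.0700; rho = -0.224, adjusted p = 0.672) that was -0.160 without wild type replicate 7 (exact p = 0.681), -0.786 without ΔGm15551 replicate 5 (adjusted p = 0.0333) and -0.795 without wild type replicate 2 (adjusted p = 0.0289). The total count of the library gave r = -0.390 (adjusted p = 0.329; rho = -0.309, adjusted p = 0.528), with 0.167 without wild type replicate 7 (adjusted p = 0.845) and -0.827 without wild type replicate 2 (adjusted p = 0.0160). The part of vessel, muscle and depth differences in the globin level was not tested.

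**Figure D4:**
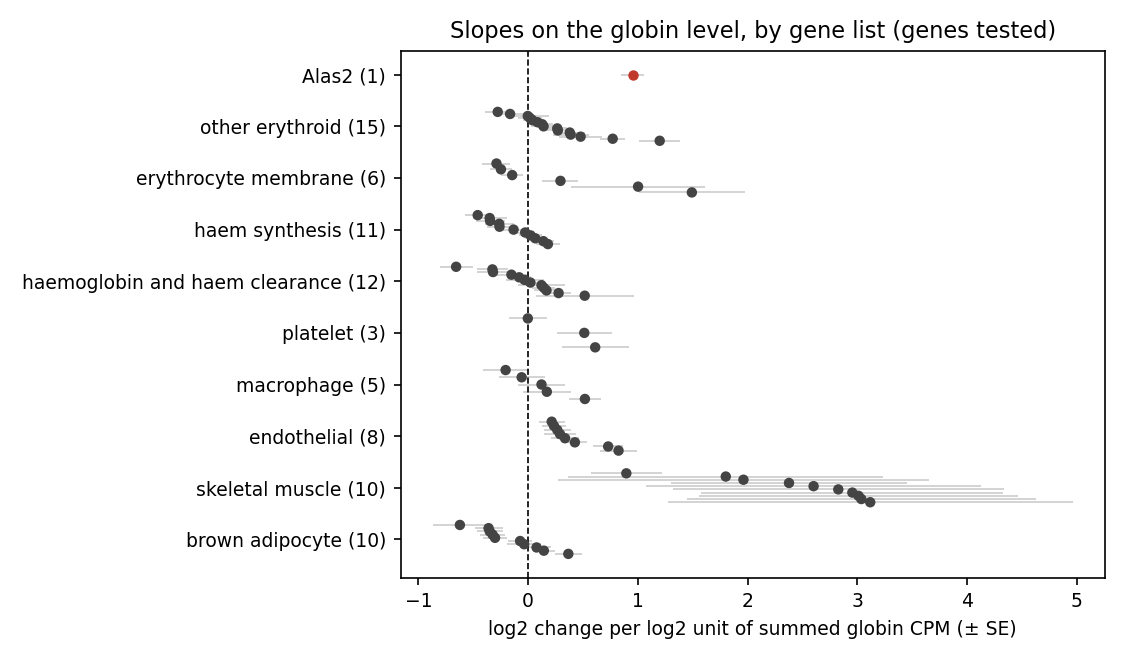
Slope of each tested gene on the globin level (log2 change per log2 unit, with SE bars), by gene list, with the number of genes tested in brackets. The dashed line is the median of all tested genes (-0.004), and red marks an adjusted p under 0.05 in edgeR. Only Alas2 is red, the endothelial and skeletal muscle genes all lie to the right of 0, and the haem synthesis genes lie on both sides.

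By Pearson r over the 10 mice, the transcripts most like the globin level among 13083 genes with at least 1 CPM on average, members left out, were Gata6, a GATA-family transcription factor (r = 0.964), Gm42895, an unconfirmed transcript model (0.955), Ube2l6 (0.952), Tmem86b, a lysoplasmalogen-cleaving enzyme (0.946), Fbxw7, a ubiquitin ligase subunit (0.939), Bag5, a co-chaperone (0.938), Nod1, a sensor of bacterial cell wall fragments (0.925), and Snhg5, a host gene of small nucleolar RNAs (0.922). Without wild type replicate 7 these 8 had r between 0.843 and 0.933. On the same measure Alas2 ranked 2 with r = 0.964 (rank 3 without that mouse), while Slc4a1 ranked 80 with r = 0.834 (rank 442 without it). Gata6 was a low transcript of 0.625 to 2.66 CPM, and its slope of 1.07 ± 0.207 was not called (adjusted p = 0.109).

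Over the lists, the comparison of genotypes gave 0 calls. The median log2 fold change was 0.06 for the other erythroid genes, -0.03 for the membrane genes, 0.10 for haem synthesis, 0.03 for clearance, 0.03 for platelet, -0.21 for macrophage, 0.08 for endothelial, 0.05 for brown adipocyte and -0.27 for skeletal muscle genes, beside -0.0009 over all tested genes. The smallest adjusted p in each of these lists was 0.99974.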

How the data were processed

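RNA of iBAT from 10 mice was analysed. As the labels and methods state, poly A libraries were made with the NEBNext Ultra II kit, sequenced in pairs of 50-base reads on a NovaSeq instrument, filtered with cutadapt and quantified with salmon on GRCm38, with versions not stated. The values deposited by the authors were estimated counts (expected counts) per gene, already rounded to whole numbers, 1 column per mouse, not scaled. The annotation the authors used was GENCODE M22, alone or joined with RNAcentral; lengths and transcripts used here were those of GENCODE M21.

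The analysis used edgeR 4.0.16 under R 4.3.3 (filterByExpr with a minimum count of 10 and a minimum total of 15, TMM, robust quasi-likelihood fit and test, Benjamini-Hochberg over all genes tested, threshold 0.05). The tested genes held 99.8% of the counts, and the biological coefficient of variation was 0.229. The SE of a log2 value was derived from its F statistic. A second fit had genotype and log2 summed globin CPM as terms. CPM values are TMM-scaled on the full totals, and logs of single genes and of list sums used a prior count of 2, the globin level none. Single values were compared by exact permutation over 252 assignments, two-sided. Correlations used 100000 permutations, or exact enumeration under 10 mice, with Benjamini-Hochberg over 15 relations. The depth of 9680976 to 15771170 counts limits the precision of low genes such as Slc4a1. Alternatives were run with DESeq2 1.42.0 and limma 3.58.1 (voom), other scalings and filters, each mouse left out, and the replicate number as a block.

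The 6 genes, the gene lists and the tests were chosen with earlier results of these data known. From each list the genes named were those called, or else the 2 with the highest CPM and the 2 with the smallest p in the fit on the globin level, which can be the same genes; transcription factors, embryonic globins and Apex2 were named in addition, after their values were seen. Some single genes of the lists are not reported here. The genes most like the globin level were the 8 with the highest r. In simulated data with 13484 genes, the test of genotype recovered 69.4% of genes changed by 1 log2 unit and 12.2% of those changed by 0.5. In 13468 genes, the test of the globin slope recovered 73% and 13%. The changed genes were drawn without the 6 red blood cell genes, which vary more than most genes, so these shares may not hold for them. Within groups, the smallest chi-square per degree of freedom between mice was 11.3, so no library was a copy of another of its group. Nothing states that the mice were processed in separate batches, and p-values measure the spread between these mice.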

Additional observations from a re-analysis of the deposited data

Results flagged for a closer look

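In 28 groups of 5 mice examined on the linear scale, 9 values lay apart from the other mice of their genotype by Dixon's test at the 95% level. For normally distributed values, chance gives about 1.4. All 9 belonged to wild type replicate 7 and are not independent of each other. They were the summed globin level (2498 CPM, other wild type mice 602.6 to 1051), its alpha part (1269 CPM, others 272 to 490.2) and beta part (1229 CPM, others 330.6 to 560.7). By gene they were Hba-a1 (246.6 CPM, others up to 92.2), Hba-a2 (1022 CPM, others up to 398), Hbb-bs (1053 CPM, others up to 485.8), Hbb-bt (176.2 CPM, others up to 75.6), Alas2 (39.5 CPM, others up to 16.1) and Slc4a1 (2.77 CPM, others up to 0.513). The ratios within the globins and the ratio of Alas2 to globin in this mouse did not lie apart in the same test. The linear scale stretches high values, and the test was not run on log2 values. On that scale the globin level was 11.29 in wild type replicate 7 and 9.235 to 10.04 in the other wild type mice.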

How the results depend on the processing

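The comparison of genotypes called 0 genes under all 21 alternatives, and the log2 fold changes of the red blood cell genes changed sign easily around 0. Leaving out 1 mouse gave -0.30 to 0.47 for Hba-a1, -0.12 to 0.58 for Hba-a2, -0.088 to 0.49 for Hbb-bs, -0.15 to 0.52 for Hbb-bt and -0.14 to 0.52 for Alas2. Hba-a1 was 0.11 with limma-voom and 0.63 without the 3 mice of the higher number series, and Hbb-bt was -0.013 with the globin level as a covariate. Leaving out 1 mouse gave 0.007 to 0.52 for the difference in log2 globin level, -0.0038 to 0.55 for alpha, -0.062 to 0.042 for the log2 beta to alpha ratio, -0.36 to 0.22 percentage points for the Hbb-bt share and 0.69 to 1.86 for the Hba-a2 share. The Hbb-bt share differed by 0.13 points without the 3 mice of the higher series.

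Shared replicate numbers did not pair the mice (correlation of deviations -0.07, 0.05 and -0.40 for numbers 2, 5 and 7). With the replicate number as a block in the 6 mice with shared numbers, 0 genes were called (397 at an unadjusted p under 0.05, against 552 without the block), and Hba-a1, Hba-a2, Hbb-bs, Hbb-bt and Alas2 had log2 fold changes of -0.14, -0.016, -0.035, -0.13 and -0.10. In the same 6 mice with no block, a choice made after seeing the data, these were -0.50, -0.29, -0.24, -0.37 and -0.33. Paired differences in the block were -0.066 for the globin level, -0.069 for alpha, -0.063 for beta and 0.0014 for the beta to alpha ratio, and -0.79 percentage points for the Hbb-bt share (exact permutation p = 0.25, the smallest that 3 pairs allow) and 1.29 for the Hba-a2 share (exact permutation p = 0.5).

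The number of genes associated with the globin level was not stable, and the cause was not tested. It was 9 with library totals alone, 70 with no filter, 6 with a filter of 1 CPM, 594 with DESeq2 (232 rising, 362 falling), 7 with limma-voom, 3 without genotype in the model, 0 without the 3 mice of the higher series, and 0 to 2793 when 1 mouse was left out. Alas2 was called in every one of these except without wild type replicate 7 and without the 3 mice that include it, where its slope was 0.74 and 0.75. Of 15 correlations 8 had an adjusted p under 0.05, with 4 to 9 when 1 mouse was left out, 5 without ΔGm15551 replicate 1 and 4 without wild type replicate 7 or in the lower series. In that series r was -0.049 for the membrane sum, -0.094 for macrophages and 0.52 for the total count. Leaving out 1 mouse gave -0.14 to 0.21, -0.061 to 0.53 and -0.83 to 0.17 for these.

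With SEs of 0.316 to 0.420 log2 units and adjustment over 13732 genes, differences between genotypes in these genes could go undetected, and not only small ones. Depth limits Slc4a1 and the other genes of the lists that did not pass the filter on low counts, and the division of reads limits single globin copies.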

Other observations

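Next to Alas2, the genes with the smallest p for the globin slope included Ube2l6, Tent5c, Gm29216 and Gm42895, each with an adjusted p of 0.053042 and chosen here after their values were seen. Tent5c, a poly(A) polymerase, had 1.79 to 11.7 CPM and a slope of 1.15 ± 0.178. Gm29216 is annotated as an unprocessed pseudogene and had 2405 to 8418 CPM with a slope of 0.97 ± 0.154. Of the 31-base words of its transcript, 97.2% also occur in other transcripts, 449 of 462 in mt-Co1 of the mitochondrial genome; whether reads were divided between them was not tested. Gm42895 shares 71.8% of its words, mostly with Gm14540.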
